A study of Arabidopsis thaliana with 18 samples.

Results

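The set described here holds the probe sets of an Affymetrix Arabidopsis array that stood apart between the early-flowering mutant elf3-7 and wild type in the same direction at both growth temperatures. Members were chosen on measured values: the mean of 3 elf3-7 arrays minus the mean of 3 wild-type arrays had to be 0.6 or more on the log2 scale at both 16 °C and 23 °C, or -0.6 or less at both. Of 22746 probe sets, 219 met this rule, 114 on the higher side and 105 on the lower side. Because these differences made the selection, every elf3-7 minus wild-type value below is a description with no test, and supports nothing by itself. Tests were made only on contrasts that the rule did not use.

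Seedlings of Arabidopsis thaliana were grown whole for 10 days on agar with MS salts in continuous cool-white light, at 16 °C or at 23 °C. The genotypes were Columbia (WT), elf3-7 and tfl1-1, each with 3 arrays at each temperature, which gave 6 groups and 18 arrays. The labels describe the replicates, lettered A, B and C, as biological and their RNA as prepared separately. The study addressed how ELF3 and TFL1 act in the control of flowering by ambient temperature. Each mutant is represented by a single allele, and no rescued line was analysed here.

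ELF3 is a component of the evening complex, in which it joins ELF4 and the DNA-binding protein LUX to repress clock and growth genes. Loss of ELF3 disturbs the circadian clock, brings flowering forward and lengthens the hypocotyl, and ELF3 is also known for its part in temperature responses. TFL1 belongs to the same protein family as the flowering signal FT and represses flowering in the shoot meristem. No probe set was named ELF3 or TFL1 in the tables used here, so the genotype labels were not checked against the mutated genes. Of the 219 members, 118 name 1 gene, 6 name several and 95 (43.38%) are unnamed here, against 38.38% unnamed among all probe sets.

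The arrays of replicate C stood apart from the others. Control probe sets for Bacillus transcripts, which are added to RNA before labelling in some protocols, averaged 5.40 ± 0.65 (SD, n = 6) in replicate C and 3.18 ± 0.04 (n = 12) in replicates A and B. For actin and GAPDH, the 3′ probe sets exceeded the 5′ ones by 2.28 ± 0.34 in replicate C and by 1.28 ± 0.14 in the 12 other arrays. Every group holds 1 array of replicate C, and the group means of the 3′ minus 5′ difference lay between 1.41 and 1.74. Membership depended on these arrays: replicates A and B alone gave 495 probe sets by the same rule, which kept 205 of the 219, and replicate C alone gave 158, which kept 44. Leaving out 1 array gave between 135 probe sets (without elf3-7 at 23 °C replicate B, 58 higher and 77 lower) and 316 (without WT at 23 °C replicate C). Another setting, the median in place of the mean, gave 286 probe sets, which kept 156 of the 219. With equal array medians the rule gave 223, which kept 216. Without 1 array, the difference between elf3-7 and WT turned its sign in 17 of the 219 members, 11 of them on the higher side without elf3-7 at 16 °C replicate B.

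The higher side was led, among genes with a symbol, by GI (AT1G22770), a clock-controlled protein that promotes flowering through CONSTANS. GI stood in WT at 7.51, 7.65 and 7.73 at 16 °C and at 7.37, 7.45 and 6.64 at 23 °C, in the order of replicates A, B and C. In elf3-7 it stood at 9.01, 9.11 and 8.95 at 16 °C and at 9.11, 8.93 and 8.95 at 23 °C. All 6 elf3-7 arrays thus lay above all 6 WT arrays, and the elf3-7 values at 16 °C and 23 °C were nearly alike. The differences of the means were 1.39 at 16 °C and 1.84 at 23 °C. In tfl1-1, GI stood at 7.65, 8.27 and 7.58 at 16 °C and at 7.91, 8.27 and 7.89 at 23 °C. The tfl1-1 arrays overlapped those of WT at 16 °C and lay above them at 23 °C, yet below every elf3-7 array. By limma, tfl1-1 minus WT was 0.20 ± 0.21 (SE) at 16 °C (adjusted p = 0.848) and 0.87 ± 0.21 at 23 °C (adjusted p = 0.231), and neither passed the test.

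**Figure D1:**
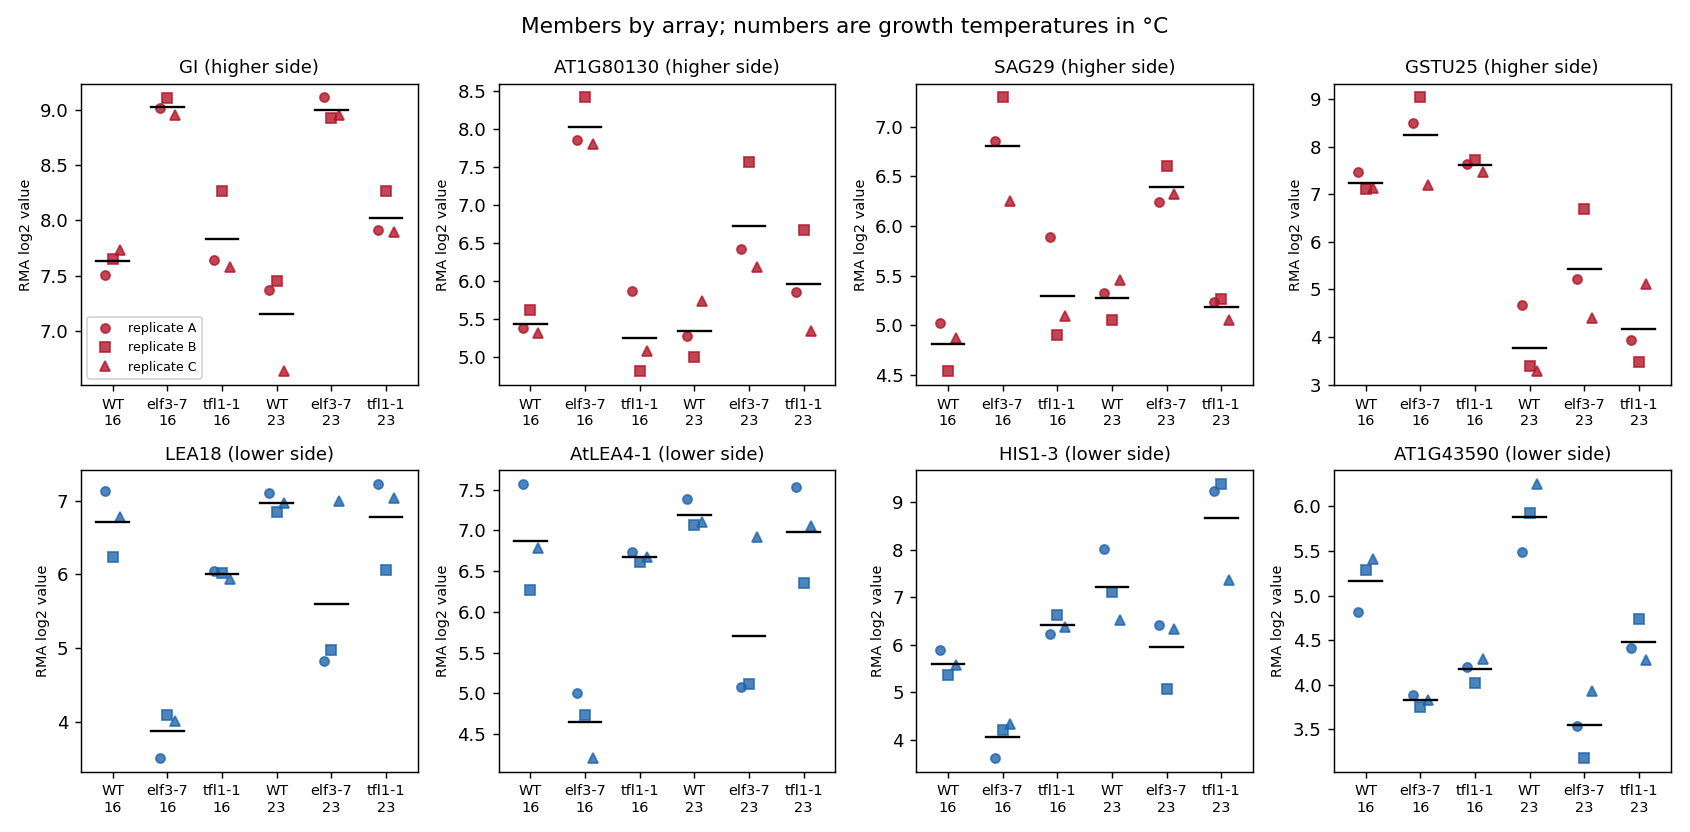
RMA log2 values of 8 named members in each array, by genotype and growth temperature, with higher-side members in red and lower-side members in blue. Points are arrays, their shapes mark the replicate letter, and bars are means of 3 arrays. GI in elf3-7 lies above WT and tfl1-1 in every array. GSTU25 in elf3-7 overlaps WT, with its replicate C array within the range of the WT values at each temperature.

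Other named members on the higher side had differences of similar size. SAG29 (AT5G13170), a sugar transporter also known as SWEET15, stood at 5.02, 4.54 and 4.88 in WT and at 6.86, 7.29 and 6.25 in elf3-7 at 16 °C. At 23 °C it stood at 5.33, 5.05 and 5.46 in WT and at 6.24, 6.60 and 6.33 in elf3-7, so that the genotypes did not overlap at either temperature. Its differences were 1.99 and 1.11. AT1G80130, which encodes a tetratricopeptide-repeat-like protein, had the largest mean difference among named higher-side members (2.58 at 16 °C and 1.38 at 23 °C). It stood at 5.39, 5.62 and 5.32 in WT and at 7.86, 8.42 and 7.80 in elf3-7 at 16 °C, and at 5.29, 5.0 and 5.74 against 6.43, 7.57 and 6.18 at 23 °C. Its arrays did not overlap between these genotypes. AT1G73600, a member of the phosphoethanolamine methyltransferase family of choline synthesis, differed by 1.46 and 1.53. AT1G47400, which encodes a small peptide induced by iron deficiency, differed by 1.73 and 1.06, and its elf3-7 arrays overlapped WT at 23 °C.

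Some named higher-side members are described here by protein family, in groups put together from the annotation after their values were seen and not tested for enrichment. The side held 4 class III peroxidases, which use hydrogen peroxide at the cell wall: AT4G26010, AT5G17820, AT1G30870 and AT4G36430. Their differences ran from 0.71 to 1.35 at 16 °C and from 0.90 to 1.85 at 23 °C. At 16 °C AT4G26010, AT5G17820 and AT1G30870 stood higher in elf3-7 only in replicate B among same-lettered arrays. AT5G17820 differed by -0.37, 3.10 and -0.52 in A, B and C, and without elf3-7 at 16 °C replicate B the means of these 3 genes differed by -0.11 to 0.00. Another class III peroxidase, AT5G64110, was on the lower side. The higher side also held 6 lipid transfer proteins (0.63 to 1.48 and 0.61 to 1.70). Of these, AT4G12490 and AT4G12500 belong to the same subfamily and lie 2 genes apart in the TAIR10.1 annotation. Another lipid transfer protein, AT4G22490, was on the lower side (-0.78 and -1.47), with a difference of 0.16 at 23 °C without elf3-7 replicate C. Probes of such similar sequences can share signal. ChiC (AT4G19810), a class V chitinase, differed by 1.14 and 0.82, and the 4 chitinases and glucanase by 0.63 to 1.28 and 0.69 to 0.87. The expansin-like gene EXLB1 (AT4G17030) differed by 1.02 and 0.91, the beta-glucosidase BGLU47 (AT4G21760) by 1.01 and 0.72, and scpl48 (AT3G45010), a serine carboxypeptidase-like protein, by 0.68 and 0.82. The transcription factor bZIP44 (AT1G75390) was close to the threshold, at 0.65 and 0.65.

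A pair of tau-class glutathione transferases, enzymes that attach glutathione to reactive compounds, were members as well. GSTU25 (AT1G17180) stood at 7.47, 7.12 and 7.13 in WT and at 8.50, 9.03 and 7.19 in elf3-7 at 16 °C. At 23 °C it stood at 4.66, 3.39 and 3.28 in WT and at 5.22, 6.70 and 4.40 in elf3-7. The genotypes overlapped at both temperatures, and the elf3-7 replicate C array lay within the range of the WT values at each. GSTU22 (AT1G78340) differed by 0.79 and 1.11, again with overlap.

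The higher side also held a root marker, for which replicate B of elf3-7 stood out. EXPA18 (AT1G62980), an expansin of root hairs, stood at 6.0, 4.70 and 4.51 in WT and at 5.80, 7.14 and 4.42 in elf3-7 at 16 °C. Only the elf3-7 replicate B array lay above every WT array there, and without it the difference of 0.72 became 0.04. At 23 °C EXPA18 stood at 3.42, 3.86 and 3.56 in WT and at 4.22, 5.26 and 3.64 in elf3-7. The other named root markers were no members. EXPA7 (AT1G12560), also a root-hair expansin, differed by 0.54 and 0.70, and PYK10 (AT3G09260), a beta-glucosidase abundant in roots, by -0.03 and 0.32. The mean level of the 3 markers ran from 6.85 to 8.03 in WT and from 6.72 to 8.54 in elf3-7 at 16 °C, and from 6.16 to 6.41 and from 6.38 to 7.48 at 23 °C. Its highest value at each temperature was elf3-7 replicate B, as for the mean of the higher side. In tfl1-1 the marker mean ran from 7.10 to 7.62 at 16 °C and from 6.11 to 6.55 at 23 °C, and its group mean was lower at 23 °C than at 16 °C in every genotype. In whole seedlings, fewer cells of a type and less RNA per cell cannot be told apart. The part of root content in the higher side was not tested.

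**Figure D2:**
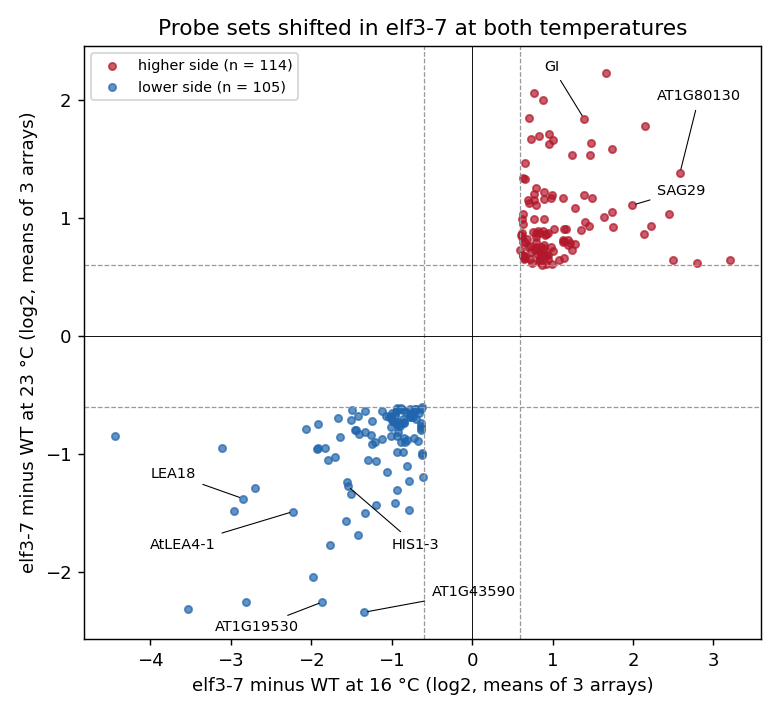
Difference between elf3-7 and WT at 16 °C (horizontal axis) and 23 °C (vertical axis) in log2 units, each from means of 3 arrays, for the 114 higher-side and 105 lower-side members. Dashed lines mark the threshold of 0.6 in size, and 8 named members are labelled. The lower side reaches to -4.44 at 16 °C and to -2.34 at 23 °C.

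The lower side was led, among genes with a symbol, by late embryogenesis abundant proteins, which accumulate in drying seeds and under water stress. LEA18 (AT2G35300) stood at 7.13, 6.23 and 6.78 in WT and at 3.50, 4.09 and 4.00 in elf3-7 at 16 °C. At 23 °C it stood at 7.10, 6.86 and 6.97 in WT and at 4.83, 4.97 and 7.00 in elf3-7. The genotypes did not overlap at 16 °C, and at 23 °C the elf3-7 replicate C array stood within the WT values while A and B stood well below. The differences were -2.85 and -1.38. AtLEA4-1 (AT1G32560) stood at 7.57, 6.26 and 6.79 in WT and at 5.01, 4.74 and 4.204 in elf3-7 at 16 °C, and at 7.39, 7.07 and 7.10 against 5.07, 5.11 and 6.92 at 23 °C. Its genotypes did not overlap, although the elf3-7 replicate C array at 23 °C came close to WT. Another LEA gene, AT3G17520 (-1.50 and -1.34), the oleosin AT2G25890 (-1.30 and -1.05), a coat protein of oil bodies, and AT1G04560 (-1.25 and -0.84), of the AWPM-19-like family, were also lower. These 5 were grouped after their values were seen. Of the 2 seed storage protein genes listed as markers, neither is named here.

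HIS1-3 (AT2G18050), a linker histone induced by drought and abscisic acid, stood at 5.88, 5.37 and 5.57 in WT and at 3.62, 4.22 and 4.33 in elf3-7 at 16 °C. At 23 °C it stood at 8.01, 7.10 and 6.52 in WT and at 6.41, 5.08 and 6.34 in elf3-7. The elf3-7 arrays lay below WT at both temperatures, and the differences were -1.55 and -1.27. In tfl1-1 it stood at 6.22, 6.64 and 6.38 at 16 °C and at 9.24, 9.38 and 7.37 at 23 °C. At 16 °C every tfl1-1 array lay above every WT array, which is the opposite side from elf3-7, and at 23 °C they overlapped. The tfl1-1 minus WT values of 0.81 ± 0.49 and 1.45 ± 0.49 did not pass the test (adjusted p = 0.730 and 0.465).

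The lower side also held ICL and MCCA, of carbon and leucine breakdown, put together after their values were seen and not tested for enrichment. ICL (AT3G21720), isocitrate lyase of the glyoxylate cycle that turns stored fat into sugar, differed by -1.01 and -0.77. MCCA (AT1G03090), a subunit of the enzyme that breaks down leucine, differed by -0.93 and -0.81. AT3G15450 and AT4G27450, which encode proteins with YGL and LRDR motifs, differed by -3.12 and -0.95 and by -1.82 and -0.95. WES1 (AT4G27260), also called GH3.5, which conjugates auxin to amino acids, differed by -0.97 and -0.73. The beta-glucosidase BGLU19 (AT3G21370) differed by -1.33 and -0.64, and SIS (AT5G02020), named for induction by salt, by -0.89 and -0.90.

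Among lower-side members named by locus code only, the largest mean differences were those of AT1G19530, AT3G15450, AT1G43590, AT1G54870, AT3G17520 and AT5G64110. AT1G43590 stood at 4.81, 5.28 and 5.41 in WT and at 3.89, 3.75 and 3.83 in elf3-7 at 16 °C, and at 5.49, 5.92 and 6.25 against 3.53, 3.18 and 3.93 at 23 °C. The SD within these groups ran from 0.07 to 0.38, and the rule chose this member on the difference itself. The elf3-7 values lay not far above the dim Bacillus probe sets of replicates A and B, which makes the size of the difference (-1.34 and -2.34) uncertain. AT1G19530 differed by -1.86 and -2.25. AT1G54870, related to aldehyde reductases, differed by -1.42 and -1.68, and AT5G64110, a class III peroxidase, by -1.33 and -1.50. On the lower side the largest mean differences belonged to unnamed probe sets, among them 252415_at (-3.53 and -2.32) and 253161_at (-4.44 and -0.84, where the latter became 0.01 without WT at 23 °C replicate A). On the higher side, 254550_at differed by 2.15 and 1.79 and 258321_at by 1.67 and 2.23. The genotypes overlapped for 254550_at at both temperatures. At 16 °C it stood at 7.07, 4.59 and 3.68 in WT and at 8.07, 9.14 and 4.57 in elf3-7.

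Across the whole set, the higher side had a median difference of 0.89 at 16 °C and 0.87 at 23 °C, and the lower side of -0.98 and -0.81. The median over all probe sets was 0.01 and 0.00. On the lower side the difference was larger in size at 16 °C for 76 of 105 members, and on the higher side for 61 of 114. A difference of at least 1 in size was reached by 40 higher and 50 lower members at 16 °C, and by 38 and 29 at 23 °C. The median level over all arrays was 6.07 on the higher side and 6.71 on the lower side, against 5.60 for all probe sets.

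The members also varied more between replicates than other probe sets, in tfl1-1 arrays that took no part in the choice too. The median SD within tfl1-1 at 23 °C was 0.55 on the higher side and 0.82 on the lower side, against 0.20 over all probe sets. At 16 °C it was 0.32 and 0.30, against 0.13. In WT and elf3-7 the median SD of members lay between 0.25 and 0.70, where that of all probe sets lay between 0.16 and 0.19.

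Accordingly, the 3 elf3-7 arrays lay entirely above the 3 WT arrays at both temperatures in 23 of 114 higher-side members, and entirely below in 35 of 105 lower-side members. Over all probe sets this held for 0.787% upward and 1.00% downward. The rule used these arrays, so nothing is read from the comparison. Same-lettered arrays differed in the direction of the side in all 6 comparisons for 47 higher and 69 lower members, and passed 0.6 in all 6 for 5 and 14. Named members among these 5 were GI, SAG29 and AT1G76960, and among the 14 were AT1G43590, AT1G54870, AT5G64110, AT5G26270 and AT4G15430, some of them named after their values were seen. At 23 °C replicate C had the direction of the side in 76 higher and 77 lower members, against 114 and 102 in replicate B. These same-letter counts also use the arrays of the rule and were not made over all probe sets. Nothing is read from them either.

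At the threshold, the members just inside the higher side were 266336_at (0.60 at 16 °C and 0.73 at 23 °C) and 264960_at (0.87 and 0.61). Just outside lay 266326_at (0.84 and 0.5987) and AT3G49960 (0.5985 and 0.60). On the lower side AT1G10740 (-0.62 and -0.6012) and 248564_at (-0.93 and -0.60) were just inside, and 253722_at (-0.83 and -0.5991) and 257410_at (-0.5968 and -0.61) just outside. These values differ by far less than the spread between replicates.

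Of 122 genes on 12 lists of clock, light, flowering, cold, pigment and tissue-marker genes, 28 are named here, and only GI and EXPA18 were members. GI was 1 of 5 named clock genes. The others were RVE6 (AT5G52660), a clock transcription factor (-0.17 at 16 °C and -0.19 at 23 °C), the repressors of evening-phased clock genes COR27 (AT5G42900, 0.19 and -0.59) and COR28 (AT4G33980, -0.29 and -0.70), and the CONSTANS repressor CDF5 (AT1G69570, 0.26 and 1.24). CDF5 and COR28 were past 0.6 in size at 23 °C only. By limma, 0 of these 5 clock genes was called in tfl1-1 minus WT at either temperature or in any of the temperature contrasts. Most core clock genes are unnamed in the tables used here, so the list speaks for these 5 alone.

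In tfl1-1 the set as a whole did not take the elf3-7 pattern. The mean of the higher side stood at 6.33, 5.95 and 5.85 in WT, at 7.23, 7.65 and 6.45 in elf3-7 and at 6.49, 6.35 and 6.21 in tfl1-1 at 16 °C. At 23 °C it stood at 5.07, 5.39 and 5.30 in WT, at 6.20, 6.88 and 5.65 in elf3-7 and at 4.87, 5.13 and 5.70 in tfl1-1. The tfl1-1 arrays overlapped WT at both temperatures, and at 23 °C the tfl1-1 replicate C array stood above every WT array and above elf3-7 replicate C.

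The mean of the lower side stood at 7.24, 6.70 and 6.77 in WT, at 5.79, 5.63 and 5.58 in elf3-7 and at 6.90, 7.14 and 7.18 in tfl1-1 at 16 °C. At 23 °C it stood at 8.01, 7.35 and 7.26 in WT, at 6.62, 6.29 and 6.86 in elf3-7 and at 8.39, 8.06 and 7.01 in tfl1-1. Again tfl1-1 overlapped WT, with replicates A and B above the WT arrays of the same letter at 23 °C and replicate C below.

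**Figure D3:**
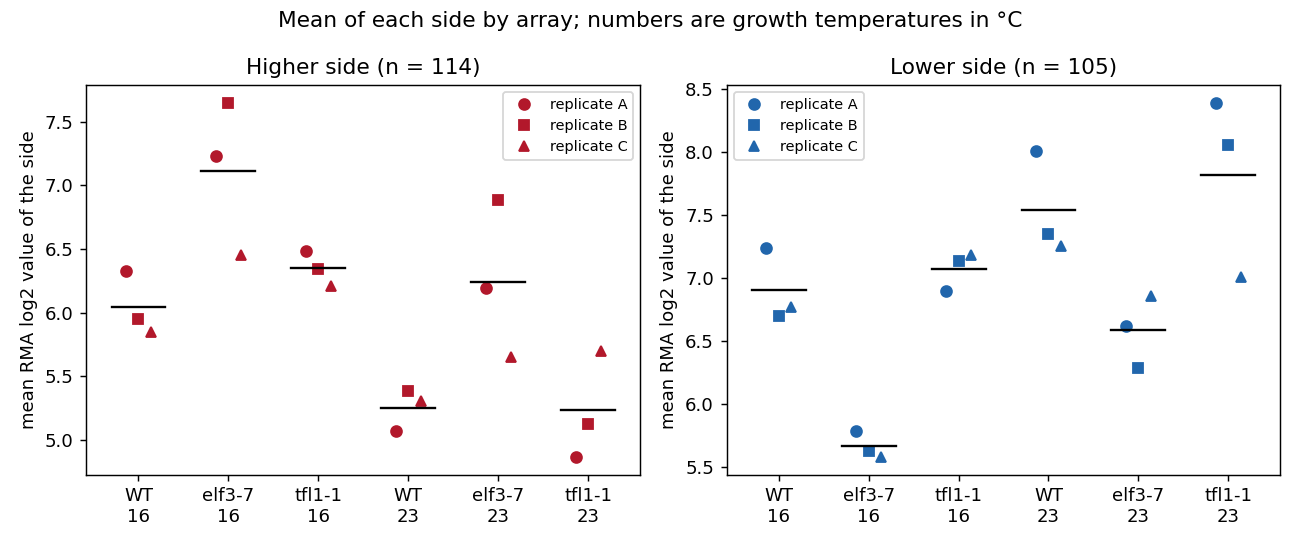
Mean RMA log2 value over the members of each side in every array, by genotype and growth temperature. Points are arrays with shapes for the replicate letter, and bars are means of 3 arrays. The sides were chosen on the elf3-7 and WT arrays, and the tfl1-1 arrays overlap WT on both sides at both temperatures.

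The WT arrays enter both the choice of members and the contrast of tfl1-1 with WT, so the values of these contrasts are not independent of the rule. At 16 °C, limma called 0 of 219 members in tfl1-1 minus WT, as it called 0% of all probe sets in either direction. At an unadjusted p under 0.05 there were 5 members higher and 0 lower on the higher side, and 2 higher and 5 lower on the lower side. These are 4.39%, 0%, 1.90% and 4.76% of the sides, where 761 higher and 956 lower stood among all 22746 probe sets. The median difference was 0.20 on both sides, against -0.02 over all probe sets. At 23 °C, 1 member was called, against 0.0220% of all probe sets called higher and 0.0132% called lower. The medians were 0.03 on the higher side and 0.28 on the lower side, against -0.03 over all probe sets.

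The called member was AT1G43590. It stood at 4.42, 4.73 and 4.28 in tfl1-1 at 23 °C, below the 5.49, 5.92 and 6.25 of WT and above the 3.53, 3.18 and 3.93 of elf3-7, with a difference from WT of -1.41 ± 0.21 (SE, adjusted p = 0.0279). At 16 °C it stood at 4.202, 4.02 and 4.29, again between the arrays of WT and elf3-7, with a difference of -0.996 ± 0.21 that did not pass (adjusted p = 0.295). The call at 23 °C was lost in 10 of the 18 fits without 1 array. In replicates A and B alone, 5 members were called at 23 °C, AT1G43590 among them. On the higher side 0 were called higher and 2 lower, and on the lower side 2 higher and 1 lower. Over all probe sets, 0.497% were called higher and 0.352% lower. The medians in replicates A and B were -0.17 on the higher side and 0.56 on the lower side, whereas replicate C had 0.32 and -0.28. Without tfl1-1 at 23 °C replicate C, 19 members were called, 3 higher and 4 lower on the higher side and 11 higher and 1 lower on the lower side, against 1.84% and 1.44% of all probe sets.

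By mean values, tfl1-1 lay between WT and elf3-7 for 70 of 114 higher-side members at 16 °C and 59 at 23 °C, and for 33 and 27 of 105 lower-side members. It lay on the far side of WT from elf3-7, or level with WT, for 71 and 76 of the lower-side members, against 33 and 54 of the higher side. A tfl1-1 difference past 0.6 in the direction of elf3-7 at both temperatures was seen for 2 higher-side members and 3 lower-side members. These were AT3G16800 (0.60 and 0.63) and an unnamed probe set on the higher side, and AT1G43590, AT5G26270 (-1.38 and -0.74) and BGLU19 (-0.93 and -0.82) on the lower side. A difference past 0.6 in the opposite direction at both temperatures was seen for 1 higher-side and 10 lower-side members, among them HIS1-3, AT3G15450 (0.87 and 0.79), AT4G27450 (0.77 and 1.17) and AT2G15960 (0.62 and 0.80). None of these but AT1G43590 at 23 °C passed the test. The counts of position and of differences past 0.6 were not made over all probe sets, so nothing is read from them. The rule used the same WT means, which can move tfl1-1 minus WT towards elf3-7. ICL differed from WT by -1.82 ± 0.62 in tfl1-1 at 16 °C, further than in elf3-7, and did not pass either (adjusted p = 0.528).

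**Figure D4:**
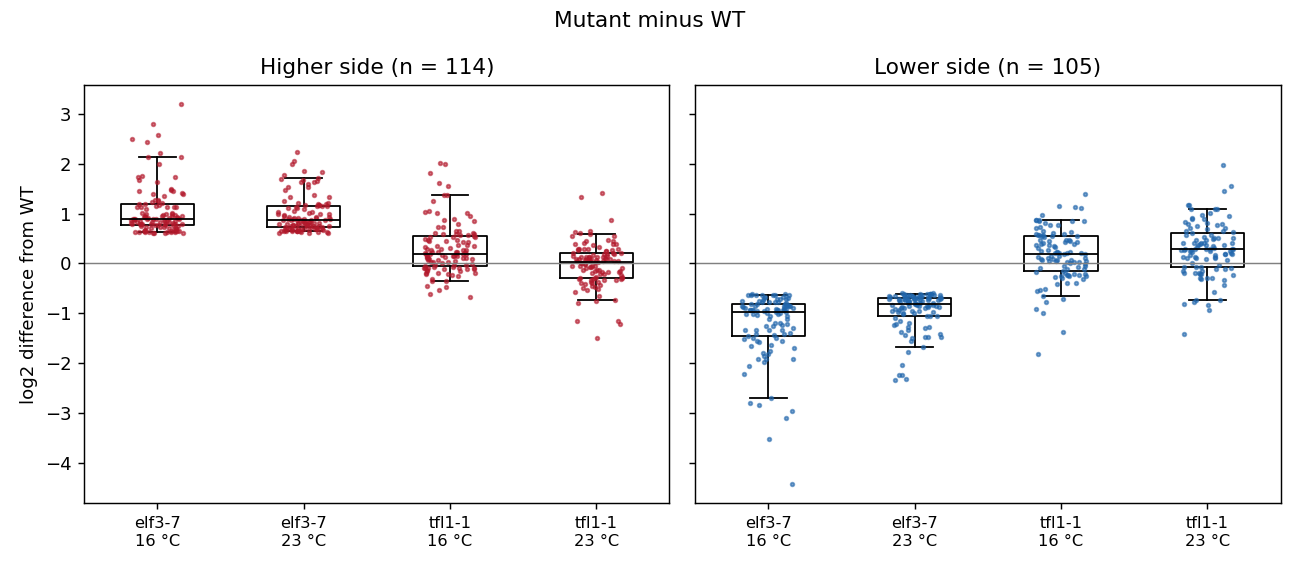
Log2 difference of each mutant from WT at each temperature for the members of each side. Points are probe sets, boxes run from the 25th to the 75th percentile with a line at the median, and whiskers from the 5th to the 95th. The elf3-7 values are fixed by the rule to lie past 0.6 in size, and the tfl1-1 medians lie between 0.03 and 0.28.

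Temperature was the contrast in which tfl1-1 gives values that the rule did not use at all. In tfl1-1, higher-side members were mostly lower at 23 °C than at 16 °C and lower-side members mostly higher. On the higher side 21 members fell and 2 rose by limma, which is 18.4% and 1.75% of the side, where 5.18% of all probe sets fell and 3.98% rose. On the lower side 11 rose and 1 fell (10.5% and 0.952%). The median difference was -1.09 on the higher side, with 100 of 114 below 0, and 0.71 on the lower side, with 93 of 105 above 0. The median over all probe sets was 0.04, with 10038 of 22746 below 0 and 12708 above 0.

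GSTU25 fell the furthest among named members in tfl1-1, from 7.63, 7.71 and 7.47 at 16 °C to 3.94, 3.48 and 5.11 at 23 °C (-3.43 ± 0.57, adjusted p = 0.00383). The peroxidase AT5G17820 fell from 8.21, 8.07 and 7.90 to 3.73, 4.93 and 5.43 (-3.36 ± 0.91, adjusted p = 0.0331). The temperatures did not overlap for either gene, and the 23 °C values of GSTU25 approached those of the dim Bacillus probe sets. Another peroxidase, AT1G30870, fell by 2.92 on the log2 scale, and the copper amine oxidase AT1G31690 fell from 6.52, 6.32 and 6.27 to 3.38, 3.61 and 3.93 (-2.73 ± 0.42, adjusted p = 0.00257). AT1G18980, a germin-like protein, fell by 2.54 and GSTU22 by 2.11. EXPA18 stood lower by -1.57 and did not pass (adjusted p = 0.0907).

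On the lower side, ICL rose in tfl1-1 from 4.76, 5.78 and 5.17 at 16 °C to 8.85, 7.10 and 7.74 at 23 °C (2.66 ± 0.62, adjusted p = 0.0182). HIS1-3 rose by 2.25 ± 0.49 (adjusted p = 0.0139), AT1G54870 by 2.05 ± 0.46 (adjusted p = 0.0147) and AT1G19530 by 2.58 ± 0.73 (adjusted p = 0.0417). The 2 temperatures did not overlap for these genes. LEA18 (0.78) and AtLEA4-1 (0.31) did not pass. Among the 5 late embryogenesis and seed genes grouped above, 1 was called higher, and their differences ran from 0.05 to 1.96. The exceptions in direction included AT1G76960, a higher-side member that rose (0.83, adjusted p = 0.0286), and AT1G28710, the lower-side member that fell (-1.23, adjusted p = 0.0360), both named after their values were seen.

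A single array, tfl1-1 at 23 °C replicate C, weighed on these counts. It had the largest 3′ minus 5′ difference of all arrays, 2.74, and whether that bears on its values was not tested. At 23 °C, tfl1-1 replicate C stood nearer to the 16 °C arrays than A and B did, and replicate C alone gave a median temperature difference of -0.47 on the higher side and -0.16 on the lower side. In replicates A and B the medians were -1.44 and 1.14. There, 63 higher-side members fell and 3 rose, and 58 lower-side members rose and 1 fell, against 11.7% lower and 10.2% higher over all probe sets. With replicate C as a block, 42 fell and 2 rose on the higher side and 18 rose and 1 fell on the lower side, against 9.42% and 8.31%. All 35 calls were kept in both fits. Without tfl1-1 at 23 °C replicate C, 99 members were called. On the higher side 46 were lower and 2 higher, and on the lower side 50 were higher and 1 lower. Over all probe sets, 10.4% were called lower and 8.71% higher in that fit. Without any 1 of the other 5 tfl1-1 arrays 7 to 18 members were called, and shares of all probe sets were not counted there.

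**Figure D5:**
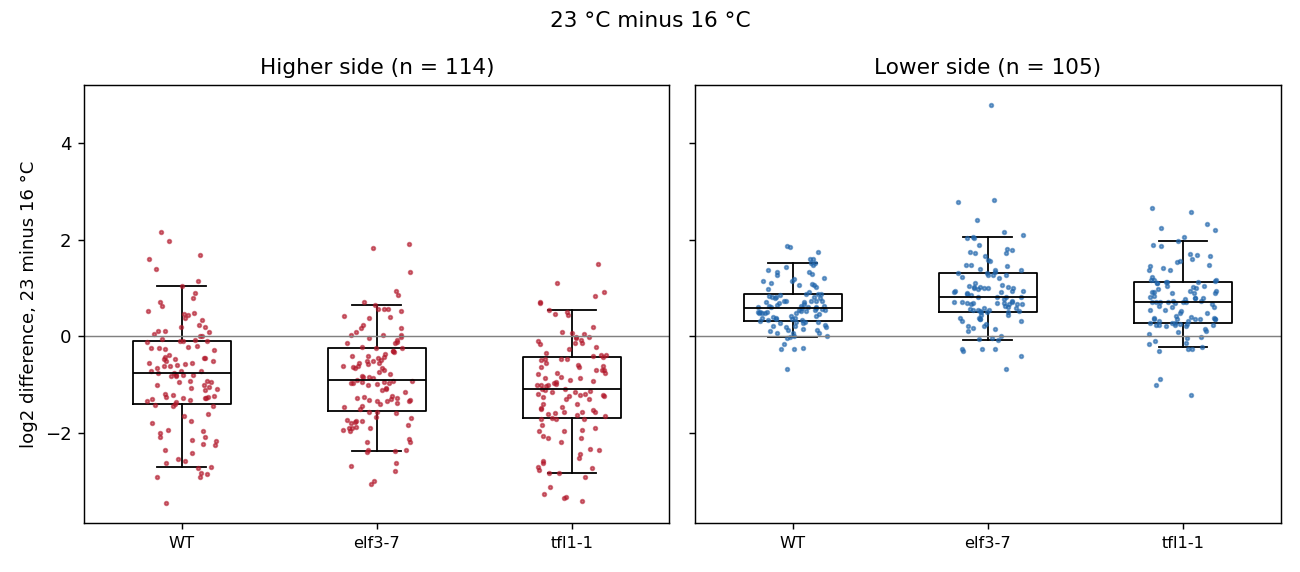
Log2 difference between 23 °C and 16 °C in each genotype for the members of each side. Points are probe sets, boxes run from the 25th to the 75th percentile with a line at the median, and whiskers from the 5th to the 95th. Medians lie between -1.09 and -0.77 on the higher side and between 0.57 and 0.81 on the lower side.

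In WT and elf3-7 the temperature contrast uses the arrays that chose the members, though in another combination. In WT, 16 higher-side members fell and 2 rose, and 2 lower-side members rose and 0 fell, where 3.98% of all probe sets fell and 2.83% rose. The medians were -0.77 and 0.57. The replicate letters paired the WT arrays, and a fit blocked on the letter gave 22 lower and 3 higher on the higher side and 12 higher and 0 lower on the lower side, against 7.12% and 6.76% of all probe sets. In replicates A and B alone, 32 fell and 2 rose on the higher side and 16 rose and 0 fell on the lower side, against 6.45% and 4.95%. GSTU25 fell by 3.46 in WT (adjusted p = 0.00544), GSTU22 by 2.09 and AT1G18980 by 2.55. AT1G30870 was at the edge of the threshold (-2.73, adjusted p = 0.04995), and AT1G67865 rose (2.16, adjusted p = 0.0269), a member whose difference was 1.75 and 0.92 between elf3-7 and WT. HIS1-3 was higher at 23 °C by 1.61 and did not pass (adjusted p = 0.0646). Against 20 called members in WT, 5 to 13 were called when WT at 16 °C B or C or at 23 °C A, B or C was left out, and 39 without tfl1-1 at 23 °C C. Shares of all probe sets were not counted for these fits, so nothing about the members is read from their counts.

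In elf3-7, 16 higher-side members fell and 1 rose, and 11 lower-side members rose and 0 fell, against 2.32% and 2.55% of all probe sets. The medians were -0.91 and 0.81. Blocked on the replicate letter, which paired these arrays too, 25 fell and 2 rose on the higher side and 34 rose and 0 fell on the lower side, against 5.75% and 7.08%. Replicates A and B gave 22 and 1 on the higher side and 14 and 0 on the lower side, against 1.97% and 2.05%. GSTU25 fell by 2.80 and GSTU22 by 1.77. HIS1-3 rose by 1.89 ± 0.49 (adjusted p = 0.0417), LEA18 by 1.74 ± 0.45 (adjusted p = 0.0410), and the unnamed 253161_at from 5.96, 4.56 and 4.53 to 10.62, 8.95 and 9.86. LEA18 at 16 °C lay near the Bacillus controls, and without elf3-7 at 23 °C replicate C its difference was 1.03 and did not pass. Counts of called members without 1 array were 6 to 9 when elf3-7 at 16 °C A, 16 °C B, 23 °C A or 23 °C C was left out, 45 without 23 °C B and 60 without tfl1-1 at 23 °C C, against 28. The shares of all probe sets called in these fits were not counted, so nothing about the members is read from them. AT1G76960 rose in all 3 genotypes.

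Calls were shared between genotypes on the higher side. There, 6 of 114 members (5.26%) fell in all 3 genotypes and 1 rose (0.877%), against 0.809% and 0.796% of all probe sets. In each genotype's means 84 of 114 (73.7%) were lower at 23 °C, against 25.7% of all probe sets. GSTU25 and GSTU22 were among the 6. On the lower side no member was called in all 3, while 89 of 105 (84.8%) were higher at 23 °C in each genotype's means, against 35.8% of all probe sets. The WT and elf3-7 arrays in these counts also chose the members. The response of tfl1-1 was tested against that of WT as an interaction, and 0 of 22746 probe sets was called (0% in the background, 821 at an unadjusted p under 0.05), and 0 members, with 7 at an unadjusted p under 0.05. The response of elf3-7 was not tested against that of WT, since that difference is made from the values of the rule. The calls made in one genotype and not in another are therefore not shown to differ between tfl1-1 and WT.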

How the data were processed

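The authors deposited log2 values, and per the submitters' processing notes RMA made them. Values ran from 2.33 to 14.08 with array medians between 5.49 and 5.63, and no further normalization was applied. The RMA version is not given in the sources used here. Arrays carry no read depth, so their number limits the precision. The 64 control probe sets of 22810 were left out. Names come from the platform annotation, updated through a RefSeq table of TAIR10.1 genes that also gave gene order. A probe set that names several genes was given no name.

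A limma model (3.58.1, R 4.3.3) of 6 group means was run on all 18 arrays, with empirical Bayes moderation. Tests were two-sided, with p-values adjusted by Benjamini-Hochberg over 22746 probe sets and calls at an adjusted p under 0.05. The fit was tested on simulated data for tfl1-1 minus WT at 23 °C, where it recovered 73 of 100 probe sets changed by 1 and 94 of 100 changed by 2 on the log2 scale, with 13 false calls. The simulated noise was independent between arrays, without the deviations of replicate C or the pairing by letter. Changed probe sets were drawn at random from all probe sets, which vary less than the members. These rates therefore do not give the power for the members.

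The members, gene lists and tests were chosen with earlier results of these data known. Text names, on each side, up to 12 members with a symbol and 6 with a locus code by mean difference, list members, the largest called changes in tfl1-1 (up to 5 against WT and 4 with temperature), the probe sets at the threshold and 2 unnamed ones. Protein families and the other loci were picked after values were seen. Same-lettered arrays deviated together in WT (correlations 0.44, 0.30 and 0.55) and elf3-7 (0.46, 0.34 and 0.62) between temperatures, and in tfl1-1 and WT at 23 °C (0.62, 0.19 and 0.60). These contrasts were taken as paired, with the lowest correlation above 0.1. In tfl1-1 between temperatures the correlations were -0.10, 0.29 and 0.27, and in tfl1-1 and WT at 16 °C -0.09, 0.09 and 0.55. Neither was taken as paired, though some letters deviated together. The spread is between RNA preparations that the labels call biological replicates. The interaction test was added after the first fits. Plots were made with matplotlib 3.10.9.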

Additional observations from a re-analysis of the deposited data

How the results depend on the processing

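Counts of called members moved with the arrays used far more than with scaling. In tfl1-1 minus WT, array weights gave 3 calls at 16 °C and 28 at 23 °C, where the 1 call became 0 with the filter on dim probe sets and with the compared groups alone, 5 in replicates A and B, and 0 to 19 without 1 array. In the temperature contrasts, array weights gave 142 calls in tfl1-1, 58 in WT and 101 in elf3-7. Shares over all probe sets were not counted for array weights or for most fits without 1 array. Those counts are therefore not read as results about the members. With replicate C as a block against A and B there were 63, 36 and 61. The replicate block, which used all letters, gave 64, 37 and 61. The labels name no batch. In tfl1-1 the letters were not taken to pair the arrays, since the lowest correlation between temperatures was -0.10. Replicates A and B gave 125 in tfl1-1 and 50 in WT. Leaving out 1 array gave 7 to 99 in tfl1-1, 5 to 39 in WT (without WT at 16 °C C and without tfl1-1 at 23 °C C) and 6 to 60 in elf3-7 (60 without tfl1-1 at 23 °C C). The rule found 351 probe sets at a threshold of 0.5, 90 at 0.8, 495 in replicates A and B, and 135 to 316 without 1 array. The replicate block changed no other call count by over 1.5 times. The 23 named calls in the tested contrasts kept their direction in the settings run. The differences of the rule turned in 17 of 219 members without 1 array. Of these calls, 3 held in every setting: AT1G31690 in tfl1-1, and GSTU25 in tfl1-1 and WT. The cause of these changes was not tested. Dim members near the Bacillus controls have uncertain sizes.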
